A study of Mus musculus with 6 samples.

Results

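The eicosanoid enzymes of skin were followed as 10 genes: the lipoxygenases Alox12e, Alox12, Alox15, Alox8 and Alox5, the helper protein gene Alox5ap, the leukotriene C4 synthase gene Ltc4s, the cyclooxygenases Ptgs1 and Ptgs2, and the prostaglandin E synthase gene Ptges. They were taken by gene symbol, and all 10 were among the 19309 genes measured. RNA was sequenced from the cheeks of 3 C57BL/6 mice, aged 6 to 8 weeks, in 6 libraries. The right cheek of each mouse received a mixture of acetone and ether for 30 s followed by 30 s of water, here called AEW, to dry the skin. Its left cheek received water alone for 60 s, here called vehicle. Skin was taken after 12 days of this, and each group held 3 libraries, 1 from each mouse. Side of the face and treatment cannot be told apart, and both cheeks came from the same animal, so a vehicle cheek is not skin of an untreated mouse.

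Eicosanoids are signalling lipids made from arachidonic acid, a fatty acid that phospholipases A2 release from membranes. Lipoxygenases oxidise it to hydroxy fatty acids and leukotrienes, and cyclooxygenases turn it into prostaglandin H2, from which separate synthases make the prostaglandins and thromboxane. In skin these lipids act in inflammation, pain and itch, in blood flow and in the formation of the permeability barrier. Keratinocytes hold several lipoxygenases and both cyclooxygenases, while leukotriene synthesis is known mainly from macrophages, mast cells and other leukocytes.

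Library totals ran from 18449207 to 19506491 estimated counts. Transcripts of both keratinocyte layers were abundant, with Krt14 at 2799 CPM (read counts scaled to library size) and Krt10 at 3567 CPM in vehicle skin. The samples also held skeletal muscle, whose 10 markers summed to between 29321 and 43682 CPM in vehicle libraries and between 12610 and 17962 CPM in AEW libraries. Each of these 10 was lower in every mouse, with 8 past the test (8 also under a mouse block). All 8 endothelial markers were lower in every mouse, with 3 past the test and 1 under a mouse block, and their sums were 383 to 523 CPM in vehicle and 281 to 332 CPM in AEW libraries. In bulk tissue, fewer cells of a type and less RNA per cell cannot be told apart. AEW replicate 1 differed from the other AEW libraries in its leukocyte transcripts: the 9 macrophage markers summed to 860 CPM there and to 2193 and 1604 CPM in AEW replicates 2 and 3, against 2038, 998 and 820 CPM in vehicle replicates 1 to 3. Replicate numbers are mouse numbers.

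The prostaglandin E2 route gave the single called member, so the 250 bases before the RefSeq start of its cyclooxygenase and synthase genes are shown, to set an inducible, a constitutive and the changed gene side by side. Sequences are from RefSeq on GRCm38.p6, which held 8 of the 10 members, and read 5′ to 3′ on the gene's strand. Capitals mark matches to any of 8 motifs searched on both strands: the TATA box (TATAAA), NF-kB (GGG, NN, TT, N and CC in a row), C/EBP (TTGCNNAA), the cAMP response element (TGACGTCA), AP-1 (TGANTCA), Egr (GCGNGGGCG), the GC box (GGGCGG) and the E-box (CACGTG). None of the marked matches overlaps another.
Ptges, chr2:30903298-30903547, minus strand: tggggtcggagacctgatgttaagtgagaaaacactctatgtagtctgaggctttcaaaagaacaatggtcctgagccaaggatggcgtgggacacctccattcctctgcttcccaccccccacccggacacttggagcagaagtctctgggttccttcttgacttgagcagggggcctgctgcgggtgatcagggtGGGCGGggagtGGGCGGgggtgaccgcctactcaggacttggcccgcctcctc
Ptgs2, chr1:150099781-150100030, plus strand: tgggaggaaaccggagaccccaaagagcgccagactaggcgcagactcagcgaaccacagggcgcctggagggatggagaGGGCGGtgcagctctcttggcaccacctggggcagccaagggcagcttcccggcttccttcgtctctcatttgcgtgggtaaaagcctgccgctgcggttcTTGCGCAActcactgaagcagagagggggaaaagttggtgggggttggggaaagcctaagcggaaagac
Ptgs1, chr2:36230176-36230425, plus strand: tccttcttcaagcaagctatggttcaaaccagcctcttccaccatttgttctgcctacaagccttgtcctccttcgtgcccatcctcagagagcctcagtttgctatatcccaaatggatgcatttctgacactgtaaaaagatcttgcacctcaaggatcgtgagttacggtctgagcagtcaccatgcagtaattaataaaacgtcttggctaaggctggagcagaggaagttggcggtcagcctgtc
The Ptges window held 2 GC boxes, which begin 53 and 42 bases before the start. The Ptgs2 window held 1 GC box, 170 bases before the start, and 1 C/EBP match, 69 bases before it, and the Ptgs1 window held none of the 8 motifs. G and C made up 59.6% of the Ptges window, 61.6% of the Ptgs2 window and 48.0% of the Ptgs1 window. A GC box was found in 32.7% and a C/EBP match in 9.56% of all 32851 promoters of this length in the table. Alox12 also held 2 GC boxes, which begin 55 and 22 bases before the start. Single GC boxes stood 42 bases before the start in Alox12e and in Alox8 and 35 bases before it in Alox5. These matches are letters in a window, not shown binding sites. The 50 bases that the promoter source holds after each start were not searched. A motif absent from a window may therefore stand outside it.

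Of the 10 members, all of which passed the low-count filter, 1 was higher in AEW skin and 0 were lower at an adjusted p under 0.05 in edgeR's quasi-likelihood test with Benjamini-Hochberg adjustment over 15109 genes. Across all tested genes 4.85% were called higher and 6.80% lower (11.6% in all), so the members' share was near the background. At an unadjusted p under 0.05 the edgeR test had 2 members higher (Ptges and Alox12e) and 1 lower (Ltc4s), and DESeq2 called 2 higher and 1 lower after adjustment, where it called 9.01% of all genes higher and 19.0% in either direction. With the mouse as a block, edgeR called 0 members in either direction (2 higher and 1 lower at an unadjusted p under 0.05), against 1.99% of all genes higher and 3.89% lower (5.88% in all). With mice 2 and 3 alone and that block it called 3 members higher (Ptges, Alox5ap and Alox15) and 1 lower (Ltc4s), against 12.7% and 10.5% of all genes (23.1% in all). The median log2 fold change of the members was 0.18, against 0.01 over all tested genes. AEW was above vehicle in all 3 mice for Alox12e, Ptgs2 and Ptges, and below it in all 3 for Ltc4s. The same was seen for 25.3% (above) and 26.9% (below) of all tested genes.

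**Figure D1:**
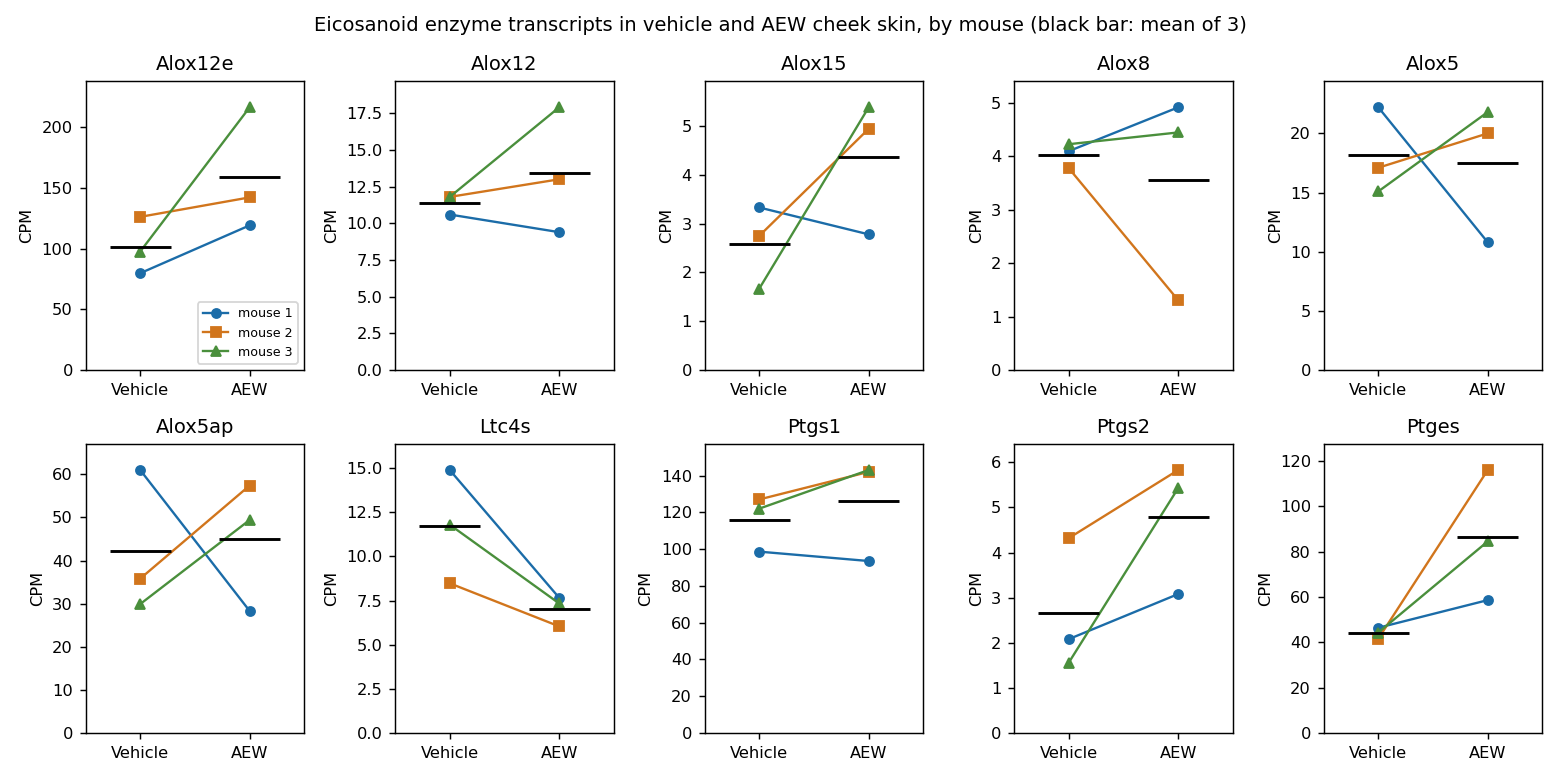
Level of each of the 10 genes in CPM (y axes start at 0) in the vehicle and AEW cheek of each mouse, with lines joining the cheeks of 1 mouse and black bars for the mean of 3 libraries. Ptges is the gene whose 3 AEW libraries (58.6 to 116 CPM) all lie above its vehicle libraries, Ltc4s the gene whose AEW libraries (6.04 to 7.66 CPM) all lie below, and Alox5 and Alox5ap cross because mouse 1 goes down where mice 2 and 3 go up.

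Levels can be compared between genes only per length, for which the deposited TPM (scaled to both gene length and library size) was used. In vehicle skin the most abundant members were Alox12e at 71.7 ± 17.9 TPM, Alox5ap at 70.2 ± 26.4 TPM and Ptgs1 at 59.6 ± 8.95 TPM (SD, n = 3), and the library ranges of neighbours among these 3 overlapped. Ltc4s followed at 31.0 ± 8.12 TPM, Ptges at 19.9 ± 0.717 TPM, Alox5 at 10.5 ± 1.98 TPM, Alox12 at 6.19 ± 0.462 TPM and Alox8 at 2.01 ± 0.10 TPM (SD, n = 3), each with a range apart from its neighbours'. Alox15 at 1.20 ± 0.59 TPM and Ptgs2 at 0.97 ± 0.552 TPM (SD, n = 3) came last with overlapping ranges. In AEW skin Ptges (40.0 ± 11.5 TPM) stood above Ltc4s (19.3 ± 3.22 TPM), the reverse of their order in vehicle skin, and the ranges of this pair were apart in both groups (SD, n = 3 each).

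Cyclooxygenases make the shared precursor of all prostaglandins. Ptgs1 (gene 19224), the constitutive cyclooxygenase, had 98.6, 127 and 122 CPM in vehicle replicates 1 to 3 and 93.5, 142 and 143 CPM in AEW replicates 1 to 3. The groups overlapped, and mouse 1 had slightly less in AEW skin while mice 2 and 3 had more. Its log2 fold change was 0.12 ± 0.19 (SE, adjusted p = 0.696 by edgeR), with a 95% interval from -0.32 to 0.56.

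Ptgs2 (gene 19225), the cyclooxygenase induced by cytokines, growth factors and wounding, stayed at low levels. It had 2.08, 4.32 and 1.56 CPM in vehicle replicates 1 to 3 and 3.08, 5.83 and 5.43 CPM in AEW replicates 1 to 3, from 28 to 111 counts a library. AEW was the higher cheek in each of 3 mice, but the vehicle library of mouse 2 lay above the AEW library of mouse 1. The AEW to vehicle ratio was 1.48 (95% exact binomial interval 0.976 to 2.29) in mouse 1, 1.35 (1.00 to 1.82) in mouse 2 and 3.49 (2.28 to 5.50) in mouse 3. Such intervals cover counting error only. The log2 fold change of 0.85 ± 0.43 (SE) did not pass (adjusted p = 0.229 by edgeR, and 0.184 with the mouse as a block), and its 95% interval ran from -0.16 to 1.86. Per length, Ptgs1 exceeded Ptgs2 by 41.7 to 110 times in vehicle libraries and by 34.7 to 41.9 times in AEW libraries.

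Ptges (gene 64292), the inducible microsomal synthase that makes prostaglandin E2 from the cyclooxygenase product, rose. It had 46.4, 41.6 and 44.3 CPM in vehicle replicates 1 to 3 and 58.6, 116 and 84.5 CPM in AEW replicates 1 to 3. The vehicle libraries were close together, and all AEW libraries lay above them, as was so for 17.4% of all tested genes. The rise was smallest in mouse 1, with an AEW to vehicle ratio of 1.26 (95% exact binomial interval 1.16 to 1.38), against 2.79 (2.57 to 3.03) in mouse 2 and 1.91 (1.75 to 2.08) in mouse 3. Mean levels were 44.1 ± 2.37 CPM in vehicle and 86.4 ± 28.8 CPM in AEW libraries (SD, n = 3 each). The log2 fold change was 0.97 ± 0.23 (SE, adjusted p = 0.0411 by edgeR), with a 95% interval from 0.43 to 1.51. With the mouse as a block the log2 fold change was 0.92 and the call was lost (adjusted p = 0.0912). It was also lost when vehicle replicate 1, 2 or 3 was left out (adjusted p = 0.12, 0.101 and 0.154) or AEW replicate 2 or 3 (adjusted p = 0.0697 and 0.0836), and held when AEW replicate 1 was (adjusted p = 0.007).

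Set against the constitutive cyclooxygenase, the synthase had a larger share in AEW skin. The TPM of Ptges was 0.414, 0.286 and 0.319 of that of Ptgs1 in vehicle replicates 1 to 3 and 0.557, 0.703 and 0.506 of it in AEW replicates 1 to 3. The AEW libraries all had the higher ratio. Markers of other cells moved in the same libraries: 3 of 4 tested neutrophil markers were called higher (1 of 4 under a mouse block), with sums of 8.62 to 14.0 CPM in vehicle and 16.9 to 81.6 CPM in AEW libraries over 11 listed genes, of which 7 (Retnlg, Ngp, Camp, Ltf, Mpo, Elane and Ly6g) stayed under 1 CPM in each library. The 7 basal keratinocyte markers summed to 7094 to 11280 CPM in vehicle and 11453 to 13149 CPM in AEW libraries, with Krt14 called higher. Krt14 (mean 2799 CPM in vehicle and 5480 CPM in AEW) and Krt5 (3165 and 4268 CPM) made up most of these sums. Of the 7 markers, 4 were higher and 1 was lower in all 3 mice, and DESeq2 called 1 higher and 1 lower. The part of neutrophil and keratinocyte transcripts in the Ptges difference was not tested. Among tested genes outside the members, those whose log2 CPM over the 6 libraries lay closest to that of Ptges after centring were Nucb2, Cstb (a cystatin gene) and Aqp9 (a water and glycerol channel gene), at root mean square differences of 0.106, 0.115 and 0.116, given as a description.

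**Figure D2:**
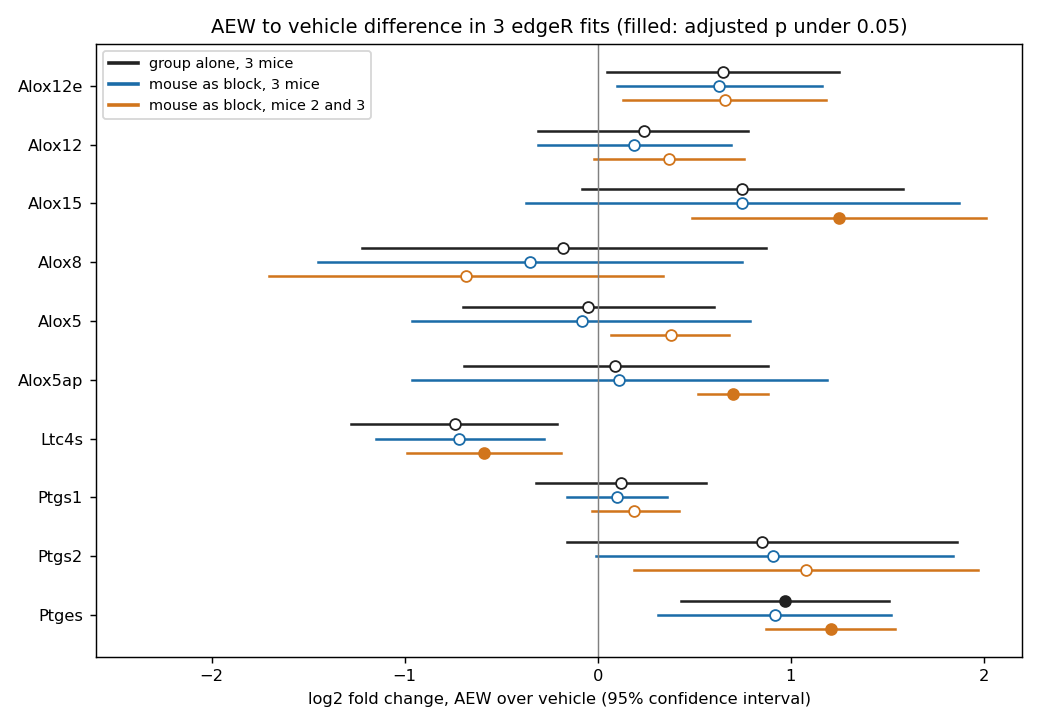
Log2 fold change of AEW over vehicle for each gene with its 95% confidence interval (x axis) in edgeR fits with group alone, with the mouse as a block, and with the block and mice 2 and 3 only; filled points have an adjusted p under 0.05. Ptges is filled with group alone (0.97) and open with the block (0.92), and Alox5ap moves from 0.09 to 0.70 when mouse 1 is left out.

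Alox12e (gene 11685), the epidermis-type 12-lipoxygenase of the mouse, was the most abundant lipoxygenase of the list. It had 79.7, 126 and 97.5 CPM in vehicle replicates 1 to 3 and 119, 142 and 216 CPM in AEW replicates 1 to 3. AEW was the higher cheek in each of 3 mice, but AEW replicate 1 lay below vehicle replicate 2. The AEW to vehicle ratios of mice 1, 2 and 3 were 1.5, 1.12 and 2.22. The log2 fold change of 0.65 ± 0.25 (SE) had a 95% interval from 0.05 to 1.25 and did not pass after adjustment (adjusted p = 0.136 by edgeR, and 0.138 with the mouse as a block), while DESeq2 called it (adjusted p = 0.0486).

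Alox12 (gene 11684), the platelet-type 12-lipoxygenase, which keratinocytes also express, had 10.6, 11.8 and 11.8 CPM in vehicle replicates 1 to 3 and 9.40, 13.0 and 17.9 CPM in AEW replicates 1 to 3. AEW replicate 1 was the lowest and AEW replicate 3 the highest of the 6 libraries. The log2 fold change was 0.24 ± 0.23 (SE, adjusted p = 0.525 by edgeR, 95% interval -0.31 to 0.78). Of the 8 platelet and megakaryocyte markers, Gp9, Ppbp, Gp5 and Gp6 stayed under 1 CPM in each library, and none of the 5 tested was called.

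Alox15 (gene 11687), the leukocyte-type 12/15-lipoxygenase of macrophages and eosinophils, had 3.33, 2.75 and 1.67 CPM in vehicle replicates 1 to 3 and 2.78, 4.94 and 5.38 CPM in AEW replicates 1 to 3. Mouse 1 had an AEW to vehicle ratio of 0.835 (95% exact binomial interval 0.571 to 1.22), and mice 2 and 3 had ratios of 1.79 (1.26 to 2.57) and 3.22 (2.13 to 5.01). The groups overlapped, and the log2 fold change was 0.75 ± 0.35 (SE, adjusted p = 0.197 by edgeR). In the blocked fit of mice 2 and 3 it was 1.25 (adjusted p = 0.0336). That fit rests on 4 libraries, and it also called 9 of 9 macrophage and 5 of 6 tested eosinophil markers higher. The eosinophil markers Prg2, Epx and Ear1 stayed under 1 CPM in each library, and the sum of the 8 listed was 62.8, 36.7 and 34.2 CPM in vehicle and 17.4, 69.8 and 56.2 CPM in AEW replicates 1 to 3. The part of these cells in the Alox15 values was not tested. The deposited units did not tell the same size of difference for this gene: its counts behind 1 TPM, relative to the library's other genes, varied 2.35-fold between libraries, against 1.01- to 1.04-fold for the other members. In mouse 1, its TPM was 1.79 in the vehicle and 0.76 in the AEW library, from 61 and 56 counts.

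Alox8 (gene 11688), the phorbol ester-inducible 8-lipoxygenase of mouse skin, had 4.10, 3.78 and 4.23 CPM in vehicle replicates 1 to 3 and 4.92, 1.31 and 4.45 CPM in AEW replicates 1 to 3. AEW replicate 2 stood apart, with 25 counts against 70 in the vehicle cheek of the same mouse, a ratio of 0.347 (95% exact binomial interval 0.211 to 0.555). In mice 1 and 3 the ratios were 1.20 and 1.05, with intervals that included equality. The log2 fold change was -0.18 ± 0.44 (SE, adjusted p = 0.818 by edgeR, 95% interval -1.22 to 0.87), and 0.22 without AEW replicate 2 (adjusted p = 0.563). Of its 50-base words, 1.89% recur on the same strand in transcripts of other genes.

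The epidermal lipoxygenases Alox12b and Aloxe3, which act in sequence on barrier ceramides, were no members and gave a comparison for the 12-lipoxygenases. Alox12b had 64.3 ± 11.7 CPM in vehicle and 85.5 ± 16.1 CPM in AEW libraries (SD, n = 3 each), and its log2 fold change of 0.41 ± 0.18 (SE) was not called (adjusted p = 0.18 by edgeR). AEW was the higher cheek in all 3 mice, and the blocked fit of mice 2 and 3 called Alox12b (edgeR adjusted p = 0.0361) but not Aloxe3 (0.121). Aloxe3 had 57.3 ± 6.71 and 66.2 ± 16.3 CPM (SD, n = 3 each), and its log2 fold change of 0.21 ± 0.19 (SE) was not called either (adjusted p = 0.491 by edgeR).

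Alox5 (gene 11689) encodes 5-lipoxygenase, which starts leukotriene synthesis. It had 22.2, 17.1 and 15.1 CPM in vehicle replicates 1 to 3 and 10.8, 20.0 and 21.8 CPM in AEW replicates 1 to 3. Mouse 1 held both the highest and the lowest of the 6 values. Its AEW to vehicle ratio was 0.486 (95% exact binomial interval 0.411 to 0.575) in mouse 1, 1.17 (1.01 to 1.36) in mouse 2 and 1.44 (1.24 to 1.69) in mouse 3.

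Alox5ap (gene 11690) encodes the membrane protein that presents arachidonic acid to 5-lipoxygenase. It had 61.0, 35.8 and 29.9 CPM in vehicle replicates 1 to 3 and 28.3, 57.4 and 49.4 CPM in AEW replicates 1 to 3. Again mouse 1 held the highest and the lowest value. The ratios were 0.464 (95% exact binomial interval 0.419 to 0.514) in mouse 1, 1.6 (1.46 to 1.77) in mouse 2 and 1.65 (1.49 to 1.84) in mouse 3.

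Over 3 mice neither gene differed beyond the spread between libraries: the log2 fold change of Alox5 was -0.05 ± 0.27 (SE, adjusted p = 0.923 by edgeR, 95% interval -0.70 to 0.60) and that of Alox5ap 0.09 ± 0.33 (SE, adjusted p = 0.875, 95% interval -0.69 to 0.88). In the blocked fit of mice 2 and 3, Alox5ap had a log2 fold change of 0.70 (adjusted p = 0.00157) and Alox5 one of 0.38 (adjusted p = 0.0789). In that same fit all 9 macrophage markers were called higher. The TPM ratio of Alox5ap to Alox5 was 5.71 to 7.92 in vehicle and 6.57 to 8.28 in AEW libraries. The sum of the 9 macrophage markers was likewise higher in the vehicle than in the AEW library of mouse 1 and lower in mice 2 and 3, and over 3 mice 0 of the 9 were called by edgeR (0 also at an unadjusted p under 0.05). Lyz2 and C1qb, the most abundant of them, had log2 fold changes of -0.01 and 0.51 (adjusted p = 0.987 and 0.51 by edgeR). The part of macrophage transcripts in these values was not tested.

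**Figure D3:**
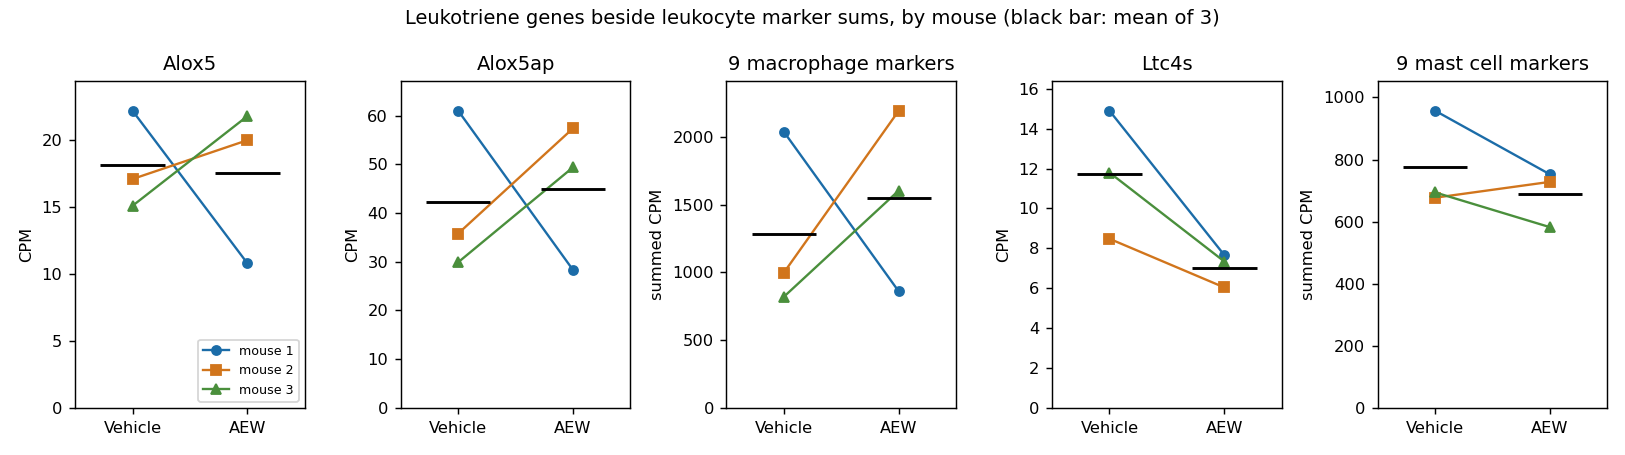
CPM of Alox5, Alox5ap and Ltc4s and summed CPM of the 9 macrophage and 9 mast cell markers in the vehicle and AEW cheek of each mouse, with y axes from 0 and black bars for means of 3 libraries. Mouse 1 goes down from vehicle to AEW in Alox5, Alox5ap and the macrophage sum (2038 to 860 CPM), where mice 2 and 3 go up, while Ltc4s goes down in each mouse.

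Ltc4s (gene 17001), which joins glutathione to leukotriene A4 to form leukotriene C4, the first cysteinyl leukotriene, did not follow Alox5 and Alox5ap in mice 2 and 3. It had 14.9, 8.48 and 11.8 CPM in vehicle replicates 1 to 3 and 7.66, 6.04 and 7.34 CPM in AEW replicates 1 to 3. The AEW libraries were all below the vehicle libraries, as was so for 19.5% of all tested genes. The ratio was 0.513 (95% exact binomial interval 0.419 to 0.628) in mouse 1, 0.712 (0.555 to 0.911) in mouse 2 and 0.620 (0.498 to 0.770) in mouse 3. Its log2 fold change of -0.74 ± 0.23 (SE) had a 95% interval from -1.28 to -0.21 and missed the threshold (adjusted p = 0.0766 by edgeR, and 0.0777 with the mouse as a block). It passed with DESeq2 (adjusted p = 0.0325), with mice 2 and 3 alone and the block (adjusted p = 0.0477) and without vehicle replicate 2.

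Mast cells are a known site of Ltc4s, and their 9 markers summed to 677 to 957 CPM in vehicle and 582 to 752 CPM in AEW libraries, with 1 of 9 called, lower, and 0 of 9 under a mouse block (1 higher and 1 lower there at an unadjusted p under 0.05 in edgeR, and 1 called lower by DESeq2 with group alone). Mcpt4 and Cpa3, the most abundant, had log2 fold changes of -0.26 and -0.09 (adjusted p = 0.289 and 0.819 by edgeR). Their part in the Ltc4s values was not tested. Of the 50-base words of Ltc4s, 7.57% lie opposite an antisense gene, as do 6.96% of those of Alox5ap and 3.58% of those of Ptgs1. Alox12e, Alox15, Alox5, Ptgs2 and Ptges shared 0 words with other genes on either strand.

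The rest of the pathway was read from a list of 59 genes, of which 58 were measured and 55 passed the filter. Of these, 7 were higher and 7 lower in AEW skin (edgeR, adjusted p under 0.05), against 4.85% and 6.80% of all tested genes, and the median log2 fold change was 0.10. A block for the mouse left 5 in each direction. The counts of higher genes were 0 when vehicle replicate 1 or 3 was left out, 3 when AEW replicate 2 or 3 was, and 11 when AEW replicate 1 was. Those of lower genes were 0 and 1 without vehicle replicates 1 and 3, and 2 and 3 without AEW replicates 2 and 3. Over the whole table the calls moved too, from 1760 genes in the main fit to 181 and 140 without vehicle replicates 1 and 3. They were 433 and 1000 without AEW replicates 2 and 3, and 2238 without AEW replicate 1.

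Among 14 tested genes that release arachidonic acid or related lipids, 4 rose and 1 fell. All 4 that rose encode cytosolic phospholipases A2. Pla2g4f rose from 30.2 ± 3.87 to 72.8 ± 18.8 CPM (SD, n = 3 each; log2 fold change 1.27 ± 0.20, SE, adjusted p = 0.0165 by edgeR). Pla2g4b rose from 5.51 to 19.3 CPM (adjusted p = 0.0149), and so did Pla2g4e (adjusted p = 0.0439), whose call ended under a mouse block (adjusted p = 0.147). Pla2g4e had 29.7, 16.5 and 16.7 CPM in vehicle replicates 1 to 3 and 32.2, 169 and 131 CPM in AEW replicates 1 to 3. Mouse 1 had nearly equal cheeks, with a ratio of 1.08 (95% exact binomial interval 0.966 to 1.22), against 10.2 in mouse 2 and 7.86 in mouse 3. Its log2 fold change was 2.40 over 3 mice and 3.16 in the blocked fit of mice 2 and 3, and the call also ended when any library but AEW replicate 1 was left out (adjusted p from 0.0964 to 0.171). Pla2g4d had 1 count in the 3 vehicle libraries together and 105 in the 3 of AEW, which is a ratio of 98.4 (95% exact binomial interval 17.3 to 3922). That interval pools the mice and covers counting error only, and the ratio rests on 1 vehicle count. In edgeR the log2 fold change of Pla2g4d was 6.19 (95% interval 4.33 to 8.04, adjusted p = 0.0104). The calls of Pla2g4f, Pla2g4b and Pla2g4d ended without vehicle replicate 1 (edgeR adjusted p = 0.071, 0.069 and 0.0511) or vehicle replicate 3 (0.0853, 0.0797 and 0.0569). Pla2g4a, the widely expressed enzyme that feeds cyclooxygenases and 5-lipoxygenase in many cells, had 27.2 ± 5.57 and 31.2 ± 4.64 CPM (SD, n = 3 each) and was not called (log2 fold change 0.19, adjusted p = 0.484). The secreted phospholipase gene Pla2g12a fell, with a log2 fold change of -0.48 (adjusted p = 0.0344, and 0.0554 with the block). Its call also ended when any library but AEW replicate 1 was left out (edgeR adjusted p from 0.0506 to 0.145).

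Of 10 tested genes for the later steps of the lipoxygenase branch, 1 was higher and 0 were lower. The higher one, Mgst2, encodes a microsomal glutathione transferase that can also make leukotriene C4. It had 8.63, 12.7 and 8.95 CPM in vehicle replicates 1 to 3 and 17.4, 24.6 and 15.1 CPM in AEW replicates 1 to 3. All AEW libraries lay above the vehicle libraries, the opposite order to Ltc4s, and the log2 fold change was 0.91 ± 0.23 (SE, adjusted p = 0.0492 by edgeR, and 0.0317 with the mouse as a block). The call of Mgst2 ended when any library but vehicle replicate 2 was left out (edgeR adjusted p from 0.0509 to 0.184). Lta4h, which makes leukotriene B4, had 51.4 ± 2.2 and 58.7 ± 1.47 CPM (SD, n = 3 each), a log2 fold change of 0.19 (adjusted p = 0.152).

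Among 11 tested prostanoid synthases other than Ptges, 1 was higher and 2 lower. Hpgds, the haematopoietic prostaglandin D synthase gene, fell from 40.4 ± 3.77 to 21.3 ± 5.18 CPM (SD, n = 3 each; log2 fold change -0.92 ± 0.18, SE, adjusted p = 0.0257 by edgeR). Akr1c18, a hydroxysteroid dehydrogenase gene placed here for its prostaglandin F synthase activity, fell from 239 to 133 CPM (adjusted p = 0.0155), and the carbonyl reductase gene Cbr3 rose from 27.2 to 40.3 CPM (adjusted p = 0.0336). A block for the mouse kept these 3 calls (adjusted p = 0.0263, 0.0238 and 0.0455). All 3 ended without vehicle replicate 1 (edgeR adjusted p = 0.0709, 0.0598 and 0.112) or vehicle replicate 3 (0.115, 0.0809 and 0.129). The call of Hpgds also ended without vehicle replicate 2 or AEW replicate 3. That of Akr1c18 also ended without AEW replicate 2, and that of Cbr3 without AEW replicate 2 or 3. Ptgds, the other prostaglandin D synthase gene, had 3.55, 3.89 and 3.95 CPM in vehicle replicates 1 to 3 and 15, 1.84 and 2.95 CPM in AEW replicates 1 to 3, and was not called (adjusted p = 0.493). Its higher AEW mean rested on AEW replicate 1, and without that library the log2 fold change was -0.67 (adjusted p = 0.133).

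For transport and breakdown, 1 of 6 tested genes was higher and 1 lower. Slco2a1, the prostaglandin uptake transporter gene, rose from 49.2 ± 3.69 to 67.9 ± 8.27 CPM (SD, n = 3 each; log2 fold change 0.47, adjusted p = 0.0453 by edgeR, and 0.0554 with the mouse as a block). Its call also ended whichever library was left out (edgeR adjusted p from 0.0531 to 0.177). Ptgr2, which reduces 15-keto prostaglandins, fell from 49.6 ± 2.2 to 34.3 ± 0.71 CPM (SD, n = 3 each; log2 fold change -0.53, adjusted p = 0.0128). That call ended without vehicle replicate 1 or 3 or AEW replicate 2 (edgeR adjusted p = 0.0551, 0.0755 and 0.0515). Hpgd, whose enzyme inactivates prostaglandin E2, had 38.5 ± 4.45 and 37.0 ± 6.64 CPM (SD, n = 3 each) and a log2 fold change of -0.06 (adjusted p = 0.83, 95% interval -0.42 to 0.30).

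Of 12 tested eicosanoid receptors, 0 were higher and 3 lower in the edgeR test, while 1 was higher at an unadjusted p under 0.05 and DESeq2 called 1 higher and 3 lower. Ptger3, a receptor for prostaglandin E2, had 38.5, 27.0 and 45.0 CPM in vehicle replicates 1 to 3 and 14.3, 14.9 and 14.7 CPM in AEW replicates 1 to 3. The AEW libraries were close together and all below the vehicle libraries, and the log2 fold change was -1.33 ± 0.18 (SE, adjusted p = 0.0121 by edgeR, and 0.0288 with the mouse as a block). Ptgfr and Ptgdr, the receptors for prostaglandins F2α and D2, fell with log2 fold changes of -0.66 and -1.14 (adjusted p = 0.0396 and 0.0457, and 0.0471 and 0.0553 with the block). The call of Ptgdr ended whichever library was left out (edgeR adjusted p from 0.0564 to 0.159). That of Ptgfr ended without vehicle replicate 1 or 3 or AEW replicate 2 or 3 (adjusted p from 0.0984 to 0.14). That of Ptger3 ended only without vehicle replicate 1 (adjusted p = 0.0547). Ptger4, another prostaglandin E2 receptor, had a log2 fold change of -0.19 (adjusted p = 0.522). The falls in receptors and in Hpgds stood beside the lower muscle and endothelial marker sums given above. The sums of 3 other lists were also lower in all AEW than in all vehicle libraries. They were 1355 to 2287 against 1050 to 1315 CPM for adipocytes, 42.6 to 49.1 against 31.6 to 40 CPM for T cells, and 7964 to 12107 against 7265 to 7941 CPM for sebocytes. In the sebocyte list 1 of 7 genes was called higher and 0 lower (3 lower at an unadjusted p under 0.05, and 2 by DESeq2), and its most abundant gene, Scd1, was not called (adjusted p = 0.0679 by edgeR). Scd1 (mean 7794 CPM in vehicle and 5332 CPM in AEW) and Fasn (2206 and 1270 CPM) made up most of the sebocyte sum. The median log2 fold change of the 7 was 0.55, so the sum did not move as the list did. In the blocked fit of mice 2 and 3, 4 of the 7 were called higher and 2 lower. The part of these tissues in the lower receptor and Hpgds values was not tested.

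**Figure D4:**
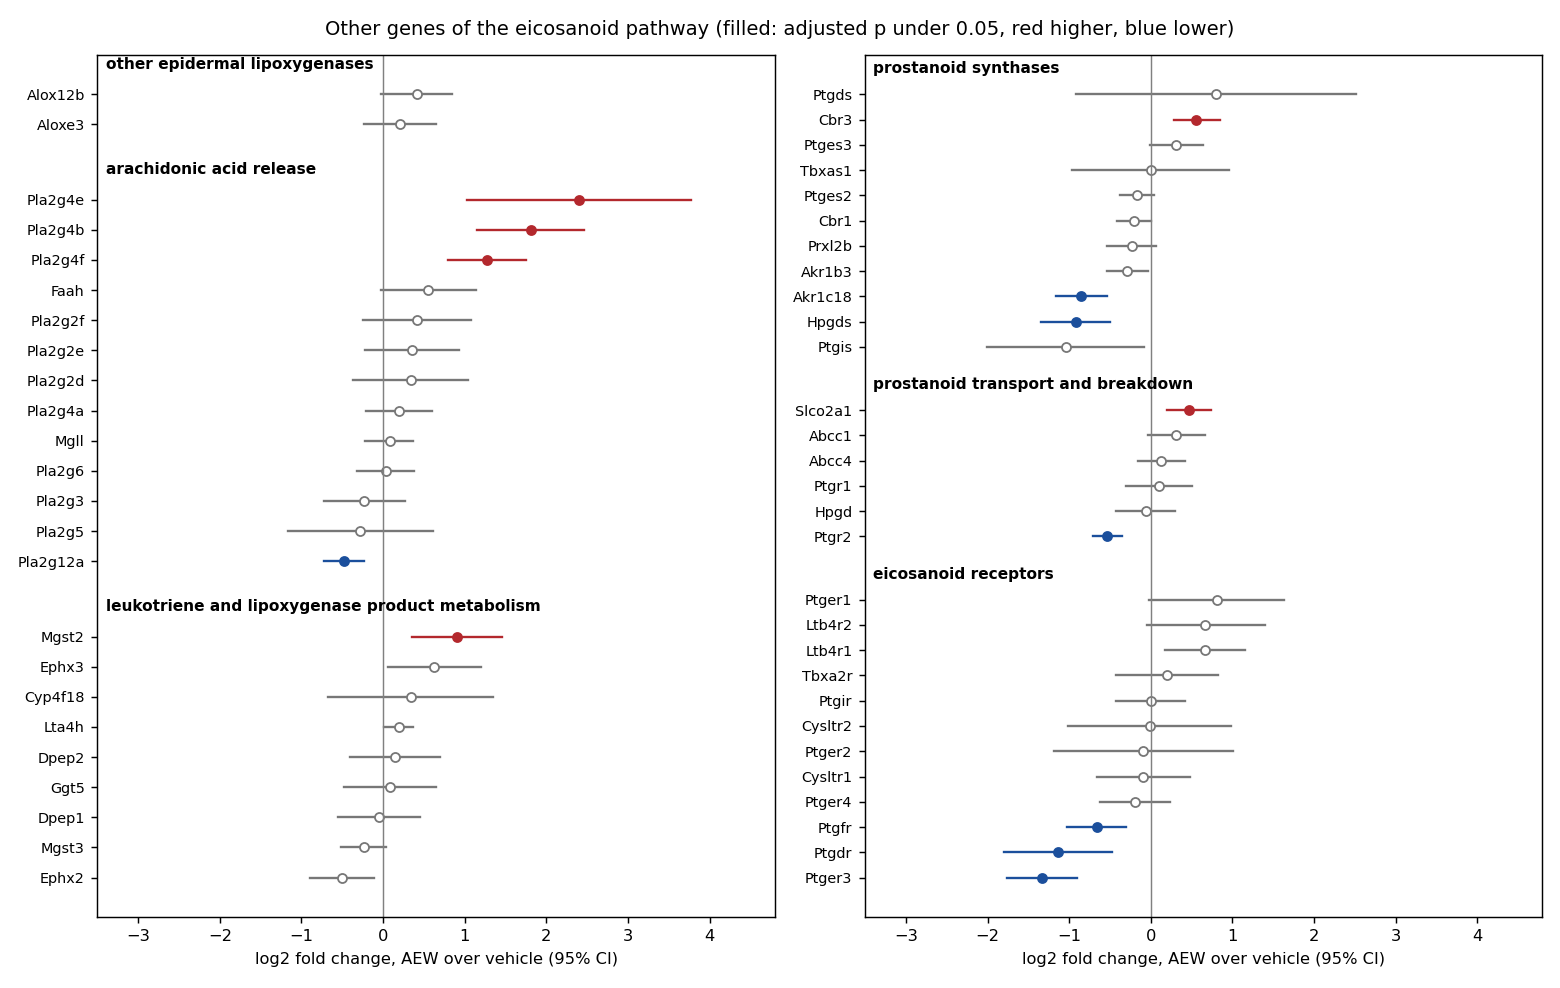
Log2 fold change of AEW over vehicle with 95% confidence intervals (x axis) for the tested pathway genes outside the member list, grouped by role; filled red points were higher and filled blue points lower at an adjusted p under 0.05 (edgeR, group alone), and Pla2g4d and Ggt1 are left out because their values or intervals run beyond the axis. The called genes farthest to the right are the cytosolic phospholipases Pla2g4e, Pla2g4b and Pla2g4f, and the called receptors (Ptgfr, Ptgdr and Ptger3) all lie to the left.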

How the data were processed

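Cheek RNA of 3 mice was selected for poly(A) and sequenced in single-end reads of 50 bases, per the labels' protocols. The deposited table holds 3 units computed by the authors: estimated counts, TPM and FPKM. HISAT and GRCm39 are named in the submitters' processing notes. The sources used here do not give the counting tool, the annotation or the strand setting. Estimated counts were rounded, filtered with filterByExpr of edgeR at a minimum count of 10 (15109 genes), scaled by TMM and tested with edgeR 4.0.16 in R 4.3.3 (quasi-likelihood, group as the single term). Levels are TMM-scaled CPM with the SD over 3 libraries. Adjustment of p-values spanned the tested genes, and 0.05 was the threshold. The test was tried first on simulated counts drawn without differences between mice, so that trial does not bear on the pairing or on mouse 1. Alternatives were the mouse as a block, RLE scaling, DESeq2 1.42.0, no filter, limma 3.58.1 on log2(TPM + 1), and leaving out each library or mouse 1. Both cheeks of a mouse carry its number, so the numbers pair the libraries. Across genes, the 2 libraries of a mouse deviated from their group means with correlations of -0.244, -0.165 and -0.246. Libraries of 1 group differed by more than sampling noise, with a lowest chi-square of 19.78 per degree of freedom. Sharing of 50-base words was computed over GENCODE M21 transcripts. Named pathway genes were those past the threshold plus Alox12b, Aloxe3, Lta4h, Hpgd, Ptgds, Ptger4 and Pla2g4a; of each marker list the 2 most abundant were eligible; genes like Ptges were the 3 closest with mean log2 CPM of 1 or more and no predicted-model symbol. Members, lists and motifs were chosen with earlier results of these data known. The remaining marker lists had these counts of higher and lower genes among those tested: suprabasal keratinocyte 1 and 0 of 7, sebocyte 1 and 0 of 7, eosinophil 0 and 0 of 4, dendritic and Langerhans cell 0 and 0 of 8, T cell 0 and 1 of 7, fibroblast 1 and 0 of 7, adipocyte 0 and 1 of 7. With a mouse block the fibroblast, T cell and adipocyte lists had 0 and 0.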

Additional observations from a re-analysis of the deposited data

How the results depend on the processing

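With the mouse as a replicate block, 0 members were called higher in place of 1, and 888 genes in all in place of 1760; among the 31 named genes that block ended the calls of Ptges, Pla2g12a, Pla2g4e, Slco2a1 and Ptgdr and changed no other call. DESeq2 called 2 members higher and 1 lower, and 2873 genes in all. In mice 2 and 3 alone with a mouse block, 3 members were higher and 1 lower, and 3510 genes were called in all. Of 55 tested pathway genes, 17 were higher and 8 lower there, against 12.7% and 10.5% of all tested genes. In that fit Alox5 had a log2 fold change of 0.38 in place of -0.05 and Ptgds one of -0.74 in place of 0.80. The cause of these shifts was not tested. Leaving out 1 library at a time gave 0 to 1 members higher, 0 to 1 lower, 0 to 11 pathway genes higher, 0 to 7 lower and 140 to 2238 genes called in all. Among the 31 named genes, calls ended for 15, 6 and 14 without vehicle replicates 1, 2 and 3. Without AEW replicates 1, 2 and 3 they ended for 3, 10 and 9. Over those fits the log2 fold change ran from -0.02 to 0.43 for Alox12, from -0.49 to 0.22 for Alox8, from -0.24 to 0.20 for Alox5, from -0.12 to 0.46 for Alox5ap, from -0.19 to 0.08 for Hpgd and from -0.67 to 1.25 for Ptgds, so the direction of these uncalled differences depends on single libraries. The limma fit on TPM ended the calls of Pla2g12a, Ptgfr, Pla2g4e and Slco2a1, and the unfiltered fit that of Slco2a1. RLE scaling changed no call and no direction among the 31 named genes. Counts of 25 to 111 a library limit Alox15, Alox8 and Ptgs2.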
